A study of Mus musculus with 6 samples.

Results

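Skeletal muscle fibre genes were followed through 6 mouse RNA-seq libraries: 37 genes of 38561 gene IDs in the count tables, chosen as a list of symbols for proteins of the sarcomere and the muscle fibre and each matched to 1 Ensembl ID. They were grouped by role into 9 thin filament genes, 12 thick filament genes, 7 genes of the Z disc, titin and desmin, 5 of calcium handling, 3 of fibre energy metabolism and 1 of protein turnover. The libraries formed 3 groups of 2. All came from NG2-Cre;p53flox/flox mice of mixed background, in which Cre is driven by the Cspg4 promoter and floxed Trp53, which encodes the tumour suppressor p53, is deleted in cells that make Cre. Cspg4 encodes the proteoglycan NG2, found on pericytes and on other cells such as glial progenitors. The control group carried the same alleles and was NG2-expressing cells, sorted with an antibody to NG2 from normal skeletal muscle and labelled perivascular (NG2 cells 1 and 2). The tumours were primary osteosarcomas, from the right tibia (osteosarcoma 1, below the tibial osteosarcoma) and the lumbar spine (osteosarcoma 2, the spinal osteosarcoma), and primary soft tissue sarcomas, both from subcutaneous tissue. No ages were given, and the labels do not say that the libraries came from separate animals, so p-values measure only the spread between these samples.

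Muscle contracts when myosin heavy chains of the thick filament pull on actin of the thin filament. Calcium released through the ryanodine receptor binds troponin C and frees the actin sites, and the calcium pump Atp2a1 ends the contraction. Z discs anchor the thin filaments, titin spans from the Z disc to the middle of the sarcomere, and nebulin runs along the thin filament. Fast and slow fibres use different genes for myosin, troponin and calcium handling, and the embryonic and perinatal myosins (Myh3, Myh8) and cardiac actin (Actc1) mark developing or regenerating fibres. Mural cells of vessels also make desmin (Des).

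Gene counts ranged from 27693585 to 58126832 per library, and levels are given as counts normalised to library size (CPM), or as CPM per kb of exonic length where genes are compared with each other. Sequencing lanes were inferred from a digit in the deposited names. This digit was 4 in each NG2 cell library, 5 in each osteosarcoma and 6 in each soft tissue sarcoma. If it is the lane, lane and group cannot be told apart. Cspg4, which encodes NG2, was at 38.6 and 30.6 CPM in the NG2 cells, 118 and 37.7 CPM in the osteosarcomas and 188 and 88.7 CPM in the soft tissue sarcomas. Of 13 smooth muscle and mural markers, 3 were called higher (Smtn, Pdgfrb and Mcam) and 2 lower (Rgs5 and Myh11) in osteosarcoma than in NG2 cells, against 10.5% and 11% of all tested genes, and 1 higher (Smtn) and 2 lower (Rgs5 and Myh11) in soft tissue sarcoma, against 9.89% and 9.4%. In the NG2 cells 10 lymphocyte markers summed to 5654 to 11020 CPM, against 74.6 to 376.4 CPM in the tumours, so these libraries were not of mural cells alone. The 9 osteoblast and bone matrix markers summed to 38220 and 39340 CPM in the osteosarcomas, 4003 to 4355 CPM in the soft tissue sarcomas and 102.3 to 135.9 CPM in the NG2 cells. In the soft tissue sarcomas the sum was mostly Col1a1 (2389 and 1779 CPM) and Spp1 (1916 and 2161 CPM). These 2 were called higher there than in NG2 cells and 1, Alpl, lower, against 9.89% and 9.4% of all tested genes. Sp7 was at 0 in both soft tissue sarcomas. Trp53, counted over the whole gene, was at 101 and 82.3 CPM in the NG2 cells, 24.3 and 32.6 CPM in the osteosarcomas and 31.2 and 27.3 CPM in the soft tissue sarcomas, and fell in both tumour groups (edgeR adjusted p = 0.0172 and 0.0199). In bulk libraries, fewer cells of a type and less RNA per cell cannot be told apart.

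The spinal osteosarcoma carried most of the muscle fibre RNA in the series. The 37 genes summed to 181.5 and 189.1 CPM in the NG2 cells, 154.5 CPM in the tibial osteosarcoma, 1786 CPM in the spinal osteosarcoma, and 107.4 and 40.9 CPM in the soft tissue sarcomas. As a share of gene counts, the spinal osteosarcoma had 0.1787% (95% Wilson interval 0.1772% to 0.1803%), and the other libraries had 0.004387% to 0.01849%. Such an interval covers the counting error within a library and not the spread between samples. It may be too narrow even for that error, because PCR copies of a molecule are counted as separate reads. All 37 genes had counts in the spinal osteosarcoma and 35 had at least 10 counts, whereas 7 and 10 genes were at 0 in the NG2 cells, 9 in the tibial osteosarcoma, and 3 and 15 in the soft tissue sarcomas. The soft tissue sarcomas had the lowest sums, and the NG2 cells and the tibial osteosarcoma lay between them and the spinal tumour.

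The tibial sum was mostly a single gene, Eno3, the enolase of muscle glycolysis, which made up 78.3% of it. Without Eno3 the tibial osteosarcoma fell to 33.5 CPM, close to the 31.4 CPM of soft tissue sarcoma 2, while the spinal osteosarcoma stayed at 1743 CPM and the NG2 cells at 156.8 and 160.2 CPM. Skeletal actin (Acta1) was 48.1% of the spinal sum and 35.9% and 26.2% of the NG2 cell sums, and without it the spinal osteosarcoma still had 926.6 CPM against 116.4 and 139.5 CPM in the NG2 cells. Leaving out desmin, which mural cells also make, gave 175.7 and 171.1 CPM in the NG2 cells and 1686 CPM in the spinal osteosarcoma.

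**Figure D1:**
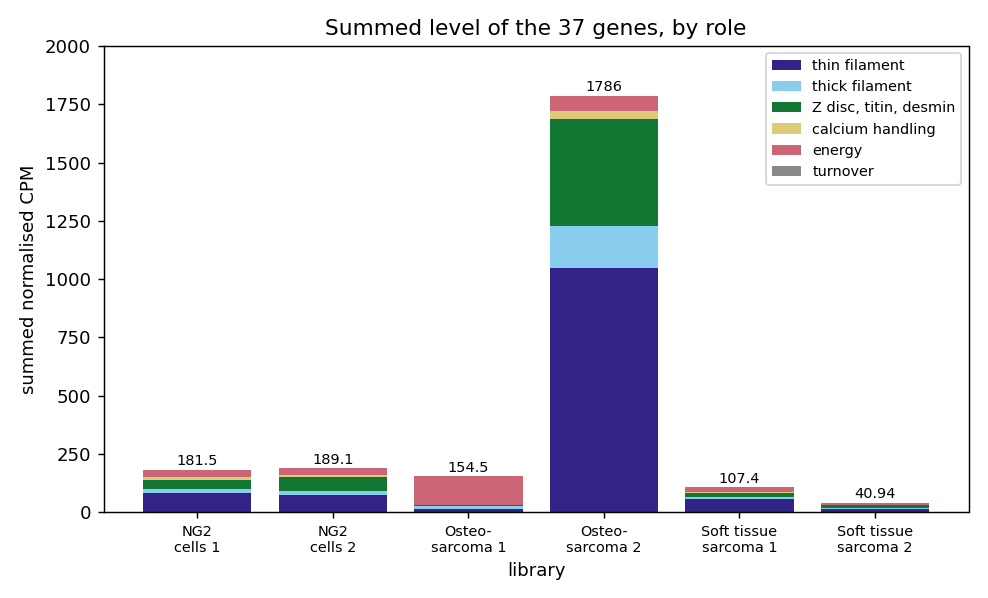
Summed normalised CPM of the 37 muscle fibre genes (y axis, from 0) in each of the 6 libraries (x axis), with the 6 roles stacked in colour and the sum printed above each bar. The spinal osteosarcoma (osteosarcoma 2) stands at 1786 CPM and the other 5 libraries between 40.9 and 189.1 CPM.

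RefSeq promoters of GRCm38.p6 were matched for 31 of the 37 genes; Actn3, Neb, Tnnt3, Tnni2, Tcap and Myoz1 had no entry. Windows of 250 bases upstream of the start were searched on both strands for the CArG box (the letters that serum response factor is known to bind), the MEF2 motif, the E-box CAGCTG that myogenic factors are known to bind, and TATAAA. The sequences of 4 genes are shown because 3 of them, Acta1, Ttn and Xirp2, were far apart between the 2 osteosarcomas and the fourth, Myl3, was not part of that pattern and was the member called in both comparisons with NG2 cells. Capitals mark a CArG box in Acta1 and Myl3, CAGCTG in Acta1 and the MEF2 motif in Ttn and Xirp2, and each run is written 5′ to 3′ on the strand of the gene.
Acta1 (skeletal actin, chr8:123894776-123895025, minus strand): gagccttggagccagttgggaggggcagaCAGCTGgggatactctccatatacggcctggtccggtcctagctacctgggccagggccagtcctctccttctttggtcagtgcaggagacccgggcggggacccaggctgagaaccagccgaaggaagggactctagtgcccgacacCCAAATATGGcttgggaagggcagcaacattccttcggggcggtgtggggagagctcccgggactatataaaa
Ttn (titin, chr2:76982548-76982797, minus strand): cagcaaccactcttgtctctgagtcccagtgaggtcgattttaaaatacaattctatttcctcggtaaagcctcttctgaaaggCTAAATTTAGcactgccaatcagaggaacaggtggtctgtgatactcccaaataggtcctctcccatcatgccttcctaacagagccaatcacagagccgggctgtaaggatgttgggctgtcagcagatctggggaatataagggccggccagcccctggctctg
Xirp2 (chr2:67445752-67446001, plus strand): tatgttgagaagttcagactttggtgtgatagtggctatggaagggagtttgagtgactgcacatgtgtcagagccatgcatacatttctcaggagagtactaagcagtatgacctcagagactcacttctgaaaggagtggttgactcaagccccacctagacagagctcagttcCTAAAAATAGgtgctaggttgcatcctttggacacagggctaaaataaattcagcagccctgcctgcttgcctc
Myl3 (slow and ventricular essential light chain, chr9:110763428-110763677, plus strand): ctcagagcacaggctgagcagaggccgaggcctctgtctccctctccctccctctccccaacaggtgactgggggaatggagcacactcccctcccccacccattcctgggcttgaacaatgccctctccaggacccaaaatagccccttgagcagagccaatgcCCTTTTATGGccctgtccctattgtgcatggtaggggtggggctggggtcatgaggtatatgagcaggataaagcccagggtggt

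The CArG box began 73 bases before the start in Acta1 and 85 bases before it in Myl3, and the MEF2 motif 166 bases before the start in Ttn and 74 in Xirp2. Of the 31 matched genes, 4 (12.9%) held a CArG box, against 1.62% of all 27025 genes with a promoter entry, and 6 (19.4%) held the MEF2 motif, against 3.42%. CAGCTG was in 14 (45.2%), against 14.7%, and TATAAA in 9 (29.0%), against 14.3%. A gene with several windows or several motifs was counted under each motif it held. These are matches of letters in upstream windows and say nothing of binding in these samples.

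Among thin filament genes, Acta1 was the highest per kb of all 37 genes in 4 of the 6 libraries. It stood at 65.2 and 49.6 CPM in the NG2 cells, 3.77 CPM in the tibial and 859.4 CPM in the spinal osteosarcoma, and 35.4 and 2.60 CPM in the soft tissue sarcomas. The 2 osteosarcomas lay on either side of the NG2 cells, 227.9-fold apart, and the log2 fold change of osteosarcoma against NG2 cells was 2.91 ± 2.08 (SE; edgeR adjusted p = 0.346). Troponin C of slow and cardiac muscle (Tnnc1) was at 0.887 and 2.41 CPM in the NG2 cells, 0.758 and 26.8 CPM in the osteosarcomas and 1.41 and 2.43 CPM in the soft tissue sarcomas, high in the spinal tumour alone. Nebulin (Neb), at 4.11 and 90.3 CPM in the osteosarcomas and 1.04 to 6.48 CPM elsewhere, had the same form, as did fast troponin T (Tnnt3), at 0.701 and 31.6 CPM in the osteosarcomas and 0.944 to 4.75 CPM elsewhere.

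The remaining thin filament genes were also highest in the spinal tumour. Slow troponin I (Tnni1) reached 16.4 CPM there and 6.69 CPM in soft tissue sarcoma 1, and was between 0.803 and 1.52 CPM in the other libraries. Fast troponin I (Tnni2) spanned only 2.12 to 10.9 CPM over all 6 libraries, and slow troponin T (Tnnt1) 0.756 to 7.29 CPM. Cardiac actin (Actc1) was at 6.97 CPM in the spinal osteosarcoma and at most 0.642 CPM in any other library. Fast troponin C (Tnnc2) had 6 counts in the spinal osteosarcoma, 5 in soft tissue sarcoma 1 and 0 in the others, and 74.0% of its exonic length overlaps Ube2c, so its counts are uncertain.

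All 6 myosin heavy chain genes, the motors of the thick filament, had counts in the spinal osteosarcoma, at 22.1 CPM for Myh2, 12.2 CPM for Myh4, 11.7 CPM for Myh1, 4.37 CPM for Myh7, 3.56 CPM for Myh3 and 1.10 CPM for Myh8. Of their summed CPM, Myh2 (fast 2A) made up 40.2%, Myh4 (fast 2B) 22.1%, Myh1 (fast 2X) 21.3%, the slow Myh7 7.95%, and the embryonic Myh3 and perinatal Myh8 6.46% and 2.00%. In the NG2 cells, where the 6 genes together were below 2 CPM, Myh4 made up 71.7% and 90.2%, at 1.05 and 1.06 CPM. In the soft tissue sarcomas Myh1 made up 66.2% and 96.6%, at 2.63 and 1.89 CPM. The embryonic, perinatal and slow chains (Myh3, Myh7, Myh8) were at 0 in both NG2 cell libraries, and Myh3 and Myh7 also in both soft tissue sarcomas. Of all 50-base stretches of Myh1, 25.4% recur in other annotated genes, chiefly Myh2, and 22.9% of those of Myh2 and 18.9% of those of Myh4 do so, so the split among fast chains is less certain than their sum.

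The light chains and binding proteins of the thick filament divided in their form. The fast essential light chain Myl1 was at 2.60 and 3.16 CPM in the NG2 cells, 0.246 and 81.5 CPM in the osteosarcomas, and 2.82 and 0 CPM in the soft tissue sarcomas, which put the spinal osteosarcoma 330.9-fold above the tibial. The fast regulatory light chain Mylpf was more even, at 8.89 and 12.0 CPM in the NG2 cells, 7.58 and 19.6 CPM in the osteosarcomas and 2.95 and 1.85 CPM in the soft tissue sarcomas, where both libraries lay below all 4 others. Slow Myl2 was highest at 2.95 CPM in the spinal osteosarcoma and otherwise at most 0.493 CPM. Slow myosin binding protein C (Mybpc1) was at 1.55 and 3.21 CPM in the NG2 cells and 9.67 CPM in the spinal osteosarcoma, with at most 0.554 CPM in the other tumours. Its fast form Mybpc2 was at 3.85 and 0.183 CPM in the NG2 cells and 8.28 CPM in the spinal osteosarcoma, with at most 0.0336 CPM in the other tumours.

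Titin (Ttn) was at 16.2 and 21.7 CPM in the NG2 cells, 3.37 and 269.6 CPM in the osteosarcomas, and 9.65 and 9.81 CPM in the soft tissue sarcomas. Desmin (Des), the intermediate filament that links Z discs, was at 5.85 and 18.0 CPM in the NG2 cells, 0.341 and 100.3 CPM in the osteosarcomas and 3.59 and 2.73 CPM in the soft tissue sarcomas. For both genes the spinal osteosarcoma was the highest library and the tibial the lowest. The Z-disc actin crosslinker Actn2 differed from them: it was at 11.7 and 17.8 CPM in the NG2 cells, 0.663 and 15.5 CPM in the osteosarcomas, and 0.621 and 0.202 CPM in the soft tissue sarcomas, so the spinal tumour lay within the range of the NG2 cells and the other 3 tumours far below it. Actn3, its fast fibre form, reached 13.4 CPM in the spinal osteosarcoma and was at most 1.22 CPM elsewhere.

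Xirp2, an actin-binding protein of muscle attachment sites, was at 0.166 and 0 CPM in the NG2 cells, 0.0379 and 53.4 CPM in the osteosarcomas, and 2.30 and 0 CPM in the soft tissue sarcomas. The tibial value was 2 counts and the spinal value 1501 counts. The titin cap protein Tcap was at 5.05 CPM in the spinal osteosarcoma, 0.803 CPM in NG2 cells 1 and at most 0.252 CPM elsewhere. Myoz1, a Z-disc protein of fast fibres, was highest in soft tissue sarcoma 1 (1.54 CPM), next in the spinal osteosarcoma (1.21 CPM) and at most 0.236 CPM elsewhere.

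The calcium handling genes were divided, with Atp2a1, Ryr1 and Casq1 highest in the spinal osteosarcoma and Cacna1s and Pvalb highest in the NG2 cells. The fast calcium pump Atp2a1 was at 4.21 and 0.665 CPM in the NG2 cells, 0.455 and 13.4 CPM in the osteosarcomas, and 1.01 and 0.303 CPM in the soft tissue sarcomas; 21.9% of its exonic length overlaps Rabep2. The ryanodine receptor Ryr1 was at 5.76 and 3.49 CPM in the NG2 cells, 0.436 and 13.5 CPM in the osteosarcomas, and 1.27 and 0.472 CPM in the soft tissue sarcomas. Cacna1s, the voltage sensor that opens it, did not follow: at 3.10 and 3.14 CPM in the NG2 cells it was above the 2.84 CPM of the spinal osteosarcoma and the 0 to 0.185 CPM of the other tumours. Parvalbumin (Pvalb), the calcium buffer of fast fibres, was highest in the NG2 cells (0.637 and 0.390 CPM), with 3 counts in the spinal osteosarcoma and 0 in the other 3 tumours. Calsequestrin (Casq1), which stores calcium in the sarcoplasmic reticulum, was at 0.416 and 0.481 CPM in the NG2 cells, 0.701 and 2.88 CPM in the osteosarcomas and 0.302 and 0.202 CPM in the soft tissue sarcomas, so that the 3 groups did not overlap.

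In energy metabolism, muscle creatine kinase (Ckm) was at 3.60 and 0.894 CPM in the NG2 cells, 0.0379 and 12.8 CPM in the osteosarcomas, and 0.486 and 0 CPM in the soft tissue sarcomas. Myoglobin (Mb), the oxygen store of the fibre, was at 1.02 and 1.22 CPM in the NG2 cells, 0 and 9.14 CPM in the osteosarcomas and 0.503 and 0 CPM in the soft tissue sarcomas. Eno3 ran the other way between the osteosarcomas, at 121.0 CPM in the tibial and 42.6 CPM in the spinal tumour, both above the 24.7 and 28.9 CPM of the NG2 cells, which were above the 19.2 and 9.50 CPM of the soft tissue sarcomas. Trim63 (MuRF1), the ubiquitin ligase of muscle atrophy, was at 1.56 CPM in the spinal osteosarcoma, 0.101 CPM in soft tissue sarcoma 1 and 0 in the other 4 libraries.

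**Figure D2:**
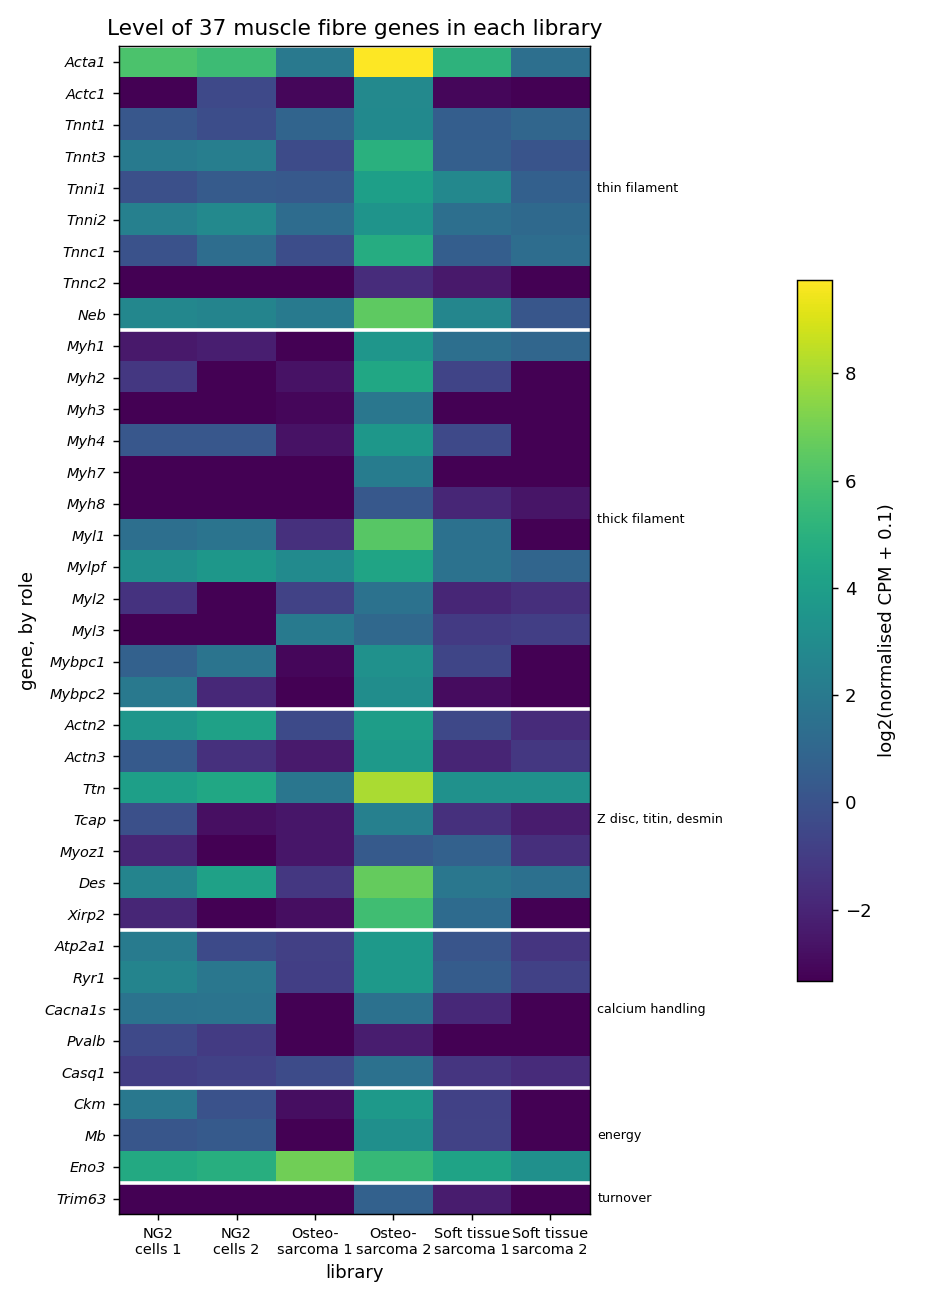
Level of each of the 37 genes (rows, by role) in each library (columns) as log2(normalised CPM + 0.1), on the colour scale at the right. The spinal osteosarcoma column is the brightest for most rows, Acta1 (859.4 CPM) and Ttn (269.6 CPM) above all, and Eno3 is brightest in the tibial osteosarcoma (121.0 CPM).

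Between the 2 osteosarcomas the difference ran through the list. In the spinal osteosarcoma 35 of the 37 genes were higher than in the tibial, where 48.6% of all tested genes were higher, and 32 were at least 4-fold higher, against 10% of tested genes (3 counts replaced lower values in the tibial library). None was 4-fold lower, against 4.01% of tested genes. Desmin was 294-fold, Ttn 79.9-fold and Tnnc1 35.3-fold higher in the spinal tumour. Of the genes at 0 in the tibial tumour, Myh1 was at least 206.4-fold, Mb at least 160.7-fold and Mybpc2 at least 145.7-fold higher, with 3 counts in the tibial library as the floor. Myl3 and Eno3 were the 2 exceptions, 2.02-fold and 2.84-fold lower in the spinal tumour. These are differences between single libraries from different bones, with no test.

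The soft tissue sarcomas also differed, less widely. In soft tissue sarcoma 1, 28 of the 37 genes were higher than in soft tissue sarcoma 2 (51.3% of tested genes were), 6 were lower and 3 had equal values, all 0. Of the 28, 11 were at least 4-fold higher, against 3% of tested genes. Acta1 (35.4 against 2.60 CPM), Myl1 (2.82 against 0 CPM) and Xirp2 (2.30 against 0 CPM) were among them, while Ttn (9.65 and 9.81 CPM) was level. The NG2 cell libraries had 14 genes higher in library 1, against 49.4% of tested genes, and 17 lower, and 7 genes were at least 4-fold higher there (6.42% of tested genes).

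Osteosarcoma against NG2 cells asked how the muscle fibre genes of bone tumours compared with those of the sorted cells. Of the 37 genes, 32 had enough counts to be tested (Myh3, Myh7, Myh8, Tnnc2 and Trim63 did not pass the filter on low counts), and edgeR called 1 higher, Myl3, and none lower, where 10.5% of 19024 tested genes were called higher and 11% lower. An unadjusted edgeR p under 0.05 was reached by 3 of the 32. The share of all tested genes at that mark was not computed, but it cannot be below the shares called. DESeq2 called 6 higher (17.4% of its tested genes), Eno3, Myh1, Myh3, Myl3, Tnni1 and Tnnt1, and none lower (18.4%). The log2 fold change was positive for 29 of the 32 and its median was 2.42, against 0.04 over all tested genes. Eno3, at 1.61 ± 0.59 (SE; edgeR adjusted p = 0.0991), and Tnnt1, at 2.32 ± 0.91 (SE; edgeR adjusted p = 0.117), came next after Myl3. Both osteosarcomas were above both NG2 cell libraries for 6 of the 37 genes, Myh3, Myl2, Myl3, Tnnt1, Eno3 and Casq1, which is a smaller share than the 32.7% of tested genes, and below both for Cacna1s and Pvalb, where the figure for all tested genes was 32.4%. For Myh3 this rested on 1 count in the tibial osteosarcoma.

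The median changed sign with the spinal tumour. Without it, 6 of 32 tested genes had a positive log2 fold change and the median was -2.54; without the tibial tumour, 34 of 36 were positive and the median was 3.70. In each of these fits the remaining osteosarcoma was a single library, assumed to vary like the other groups. Against the tibial tumour alone, edgeR called Actn2 (log2 fold change -4.45, adjusted p = 0.0407), Des (-5.10, adjusted p = 0.035) and Ttn (-2.48, adjusted p = 0.0359) lower and Eno3 (2.19, adjusted p = 0.0338) and Myl3 (10.51, adjusted p = 0.0226) higher, where 8.9% and 7.74% of tested genes were called lower and higher. Against the spinal tumour alone it called 7 genes higher, Des, Myh1, Myl3, Neb, Tnnc1, Tnnt3 and Ttn, where 7.76% of tested genes were called, and none lower, against 7.11%. Desmin and titin thus lay on opposite sides of the NG2 cells in the tibial and spinal tumours: Des at -5.10 and 3.07 and Ttn at -2.48 and 3.83.

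**Figure D3:**
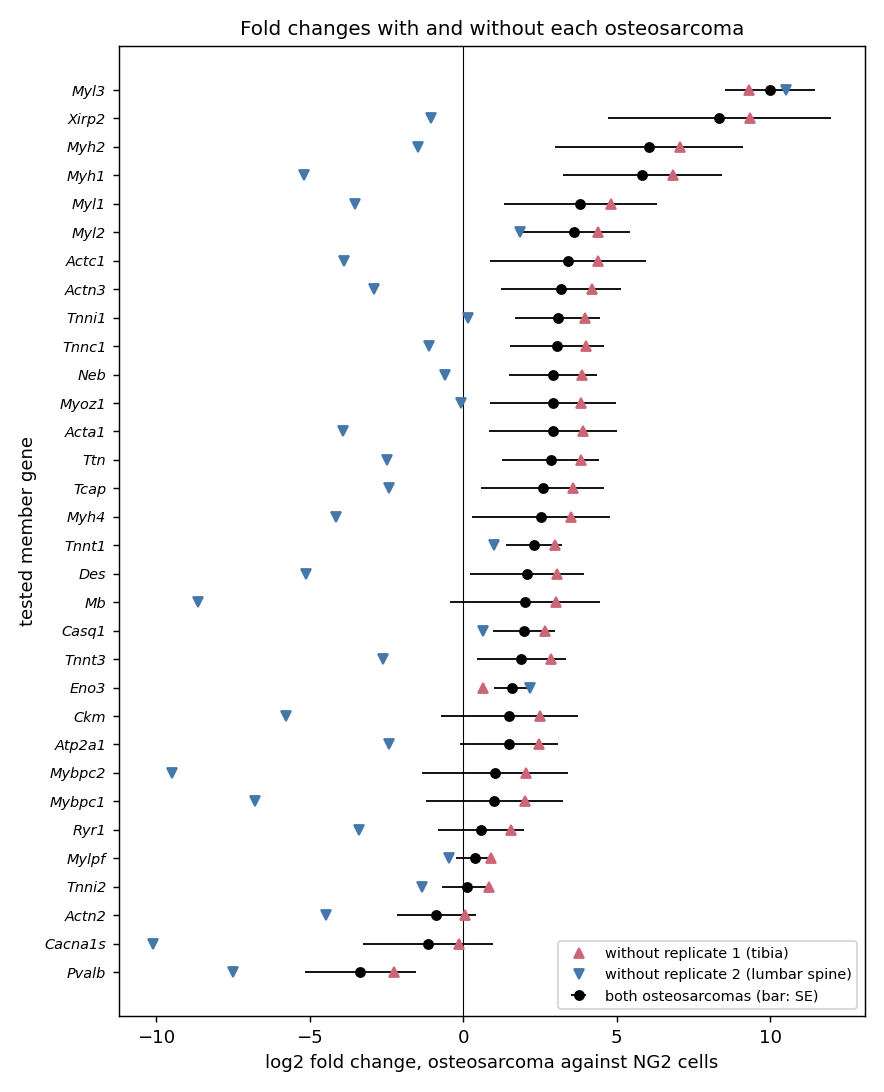
Log2 fold change of osteosarcoma against NG2 cells (x axis) for the 32 tested muscle fibre genes (y axis, ordered by the value with both osteosarcomas), with both tumours (black points, bars the standard error), without the tibial tumour (red triangles) and without the spinal tumour (blue triangles). Most blue points lie below 0 (26 of 32) and most red points above it; Myl3, Myl2, Tnnt1, Casq1, Tnni1 and Eno3 are above 0 in all 3 fits.

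Soft tissue sarcoma against NG2 cells gave 1 called gene, again Myl3, higher, and none lower, where edgeR called 9.89% of tested genes higher and 9.4% lower. An unadjusted edgeR p under 0.05 was reached by 4 of the 32 tested members, again with no share of all tested genes computed. DESeq2 called Myl3 higher and Actn2, Mybpc2 and Mylpf lower (17% and 17.8% of its tested genes). The log2 fold change was negative for 23 of 32 tested genes, with a median of -1.46 against 0 over all tested genes. Actn2 (-5.12 ± 1.54 SE; edgeR adjusted p = 0.0657) and Mylpf (-2.11 ± 0.64 SE; edgeR adjusted p = 0.0662) came nearest to the threshold among genes with negative values. Both soft tissue sarcomas lay below both NG2 cell libraries for 17 of the 37 genes, among them Acta1, Actn2, Mylpf, Ttn, Ryr1, Ckm and Des, against 34.6% of tested genes. They lay above both for 6, Myh1, Myh8, Myl3, Tnnt1, Tnni1 and Myoz1, against 35.8% of tested genes. For Myh8 this rested on 10 and 2 counts in the soft tissue sarcomas.

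Soft tissue sarcoma against osteosarcoma gave no call by edgeR among the 32 tested members, where 0.0841% of all tested genes were called higher and 0.0578% lower. An unadjusted edgeR p under 0.05 was reached by 6 members, and the share of all tested genes was not computed. DESeq2 called 9 lower (4.36% of its tested genes) and none higher (6.38%). The log2 fold change was negative for 31 of 32 genes, with a median of -3.79 against -0.03 over all tested genes, and without the spinal osteosarcoma the median was 1.33. Eno3 (-2.51 ± 0.61 SE; edgeR adjusted p = 0.152) and Mylpf (-2.49 ± 0.65 SE; edgeR adjusted p = 0.168) had the smallest p. For 8 of the 37 genes, Actc1, Actn2, Myh3, Mylpf, Myl2, Myl3, Eno3 and Casq1, both soft tissue sarcomas were below both osteosarcomas, against 24.5% of tested genes, and for none were they above both, against 25.8%. For Actc1 this rested on 1 count in the tibial osteosarcoma and 1 count in the deeper library of soft tissue sarcoma 1. Myh3 had 1 count in the tibial osteosarcoma and 0 in the soft tissue sarcomas, so neither gene was clearly apart. The 3 comparisons share libraries, so they are not independent of each other.

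Myl3, the essential light chain of slow fibres and the cardiac ventricle, was the only member edgeR called in the 3 comparisons with all libraries and the filter on low counts. Without that filter edgeR also called Actn2, lower in soft tissue sarcoma than in NG2 cells (adjusted p = 0.0354). With only these 2 groups in the fit, edgeR called Actn2 (adjusted p = 0.0104), Mylpf (0.0400) and Pvalb (0.0286) lower. In that fit Myh1 (0.0207) and Myl3 (0.0302) were higher. Of the 18116 genes then tested, 2671 were called higher and 2781 lower. Myl3 had 0 counts in both NG2 cell libraries, 216 and 57 in the osteosarcomas (4.09 and 2.03 CPM), and 22 and 13 in the soft tissue sarcomas (0.369 and 0.438 CPM). Its mean was at least 81.3-fold higher in osteosarcoma and at least 10.7-fold higher in soft tissue sarcoma than in NG2 cells, with 3 counts over the NG2 group as the floor. The edgeR adjusted p was 0.0156 for osteosarcoma and 0.0322 for soft tissue sarcoma. The call in osteosarcoma was lost without soft tissue sarcoma 2. The call in soft tissue sarcoma was lost on leaving out either NG2 cell library, either soft tissue sarcoma or the tibial osteosarcoma. Leaving out either soft tissue sarcoma removed every call among all tested genes in this comparison, not that of Myl3 alone. Leaving out either NG2 cell library also cut the calls among all tested genes there widely. So did leaving out soft tissue sarcoma 2 in osteosarcoma against NG2 cells. Without the tibial osteosarcoma, the calls among all tested genes in soft tissue sarcoma against NG2 cells rose in number.

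The Myl3 levels did not follow those of the other slow fibre genes, since the tibial osteosarcoma was the higher of the 2. The GENCODE model of Myl3 (chr9:110741861-110769798, plus strand, GRCm38) begins upstream of the RefSeq start used above, and 4.65% of its exonic length overlaps Pth1r, the parathyroid hormone receptor of bone cells. Pth1r was at 2.55 and 0 CPM in the NG2 cells, 175.1 and 221.7 CPM in the osteosarcomas, and 1.41 and 1.45 CPM in the soft tissue sarcomas, and it rose in osteosarcoma (log2 fold change 7.30, edgeR adjusted p = 0.0347). Its part in the Myl3 counts was not tested. Of 7 cardiac markers, none was called in either comparison with NG2 cells. Their sum was 1.26 to 1.44 CPM in the NG2 cells, 1.88 and 12.2 CPM in the osteosarcomas and 38.3 and 3.67 CPM in the soft tissue sarcomas. The 2 largest sums were mostly 1 gene each, Nppb in soft tissue sarcoma 1 (34.0 CPM) and Tnnt2 in the spinal osteosarcoma (10.8 CPM). The atrial light chain Myl7 was at 0 in every library.

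By the lists used, fast fibre genes outweighed slow fibre genes more in the NG2 cells than in the tumours. The fast list held Actn3, Atp2a1, Mybpc2, Myh1, Myh2, Myh4, Mylpf, Pvalb, Tnnc2, Tnni2 and Tnnt3. The slow list held Myh7, Myl2, Myl3, Tnnc1, Tnni1 and Tnnt1. Over 11 fast genes and 6 slow genes, the log2 ratio of summed CPM per kb (with 0.1 added to each sum) was 3.31 and 2.69 in the NG2 cells, 1.16 and 0.80 in the osteosarcomas, and 0.66 and 0.10 in the soft tissue sarcomas. The groups did not overlap; 2 against 2 libraries cannot give an exact permutation p under 0.33, so no test was made. The fast sums were 17.7 and 19.9 CPM per kb in the NG2 cells, 9.33 and 63.8 in the osteosarcomas, and 6.53 and 4.26 in the soft tissue sarcomas. The slow sums were 1.70 and 3.01, 4.11 and 36.6, and 4.10 and 3.96 CPM per kb in the same order. Single genes made up much of both sums. Mylpf was at 8.37 and 11.3, 7.14 and 18.5, and 2.78 and 1.75 CPM per kb in that order. Tnnc1 was at 0.852 and 2.31, 0.728 and 25.7, and 1.35 and 2.33 CPM per kb. The fast essential light chain Myl1 and the slow binding protein Mybpc1 were in neither list. Myl1 was at 1.26 and 1.52, 0.119 and 39.3, and 1.36 and 0 CPM per kb in that order. The ratio without Mylpf and Tnnc1, or with Myl1 and Mybpc1, was not computed, so the order of the osteosarcomas may depend on the lists. Myl3, which overlaps Pth1r, made up 2.00 of the 4.11 CPM per kb in the tibial slow sum. Without it, in an alternative chosen after seeing the data, the ratio was 2.10 in the tibial and 0.84 in the spinal osteosarcoma and 0.72 and 0.18 in the soft tissue sarcomas, so the nearness of the 2 osteosarcomas rested on that gene. Without the myosin heavy chains the group means were 2.98, 0.90 and 0.26.

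**Figure D4:**
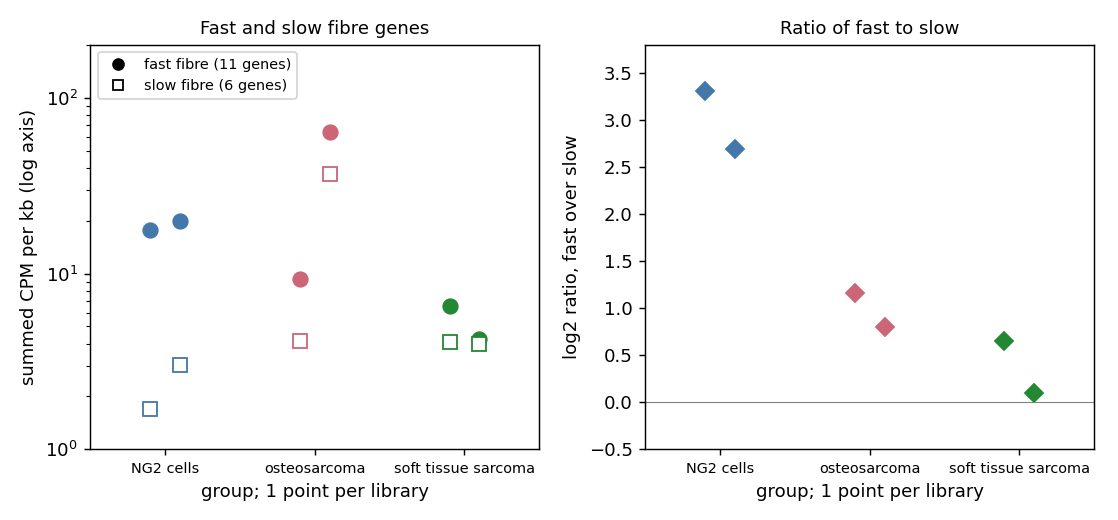
Left, summed CPM per kb (log axis) of the 11 fast fibre genes (filled circles) and 6 slow fibre genes (open squares), and right, the log2 ratio of the sums, with 1 point per library in 3 groups. The ratio runs from 2.69 to 3.31 in NG2 cells, 0.80 to 1.16 in osteosarcoma and 0.10 to 0.66 in soft tissue sarcoma.

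The developmental genes Myh3, Myh8 and Actc1 summed to 4.99 CPM per kb in the spinal osteosarcoma and to at most 0.397 CPM per kb in any other library. The master regulator of fibre differentiation myogenin (Myog) was at 32.0 CPM in the spinal osteosarcoma (899 counts) and at most 1.11 CPM in the others. Myod1 (2.13 CPM) and Myf6 (2.56 CPM) and the fusion genes Mymk (1.03 CPM) and Mymx (0.889 CPM) were also present there; these genes were chosen after their values were seen. In the tibial osteosarcoma these 4 were at 0, and Myod1 was at 1.27 and 1.42 CPM in the NG2 cells. The other myogenic factors varied: Cdh15 was at 45.2 CPM there and 43.8 CPM in the spinal one, Mef2c at 407.5 and 139.3 CPM, Myf5 at 0.190 and 0.0711 CPM, and Calcr at 0.474 and 9.07 CPM. Pax7, the factor of satellite cells, had 2.58 and 8.69 CPM in the NG2 cells and 0 counts in all 4 tumours, and it fell in both comparisons with NG2 cells (edgeR adjusted p = 0.0272 and 0.0291).

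As a list, 12 myogenic factors gave 1 gene higher (Cdh15) and 1 lower (Pax7) of 8 tested in osteosarcoma, and 4 lower (Pax7, Myf5, Mef2c and Cdh15) of 8 tested in soft tissue sarcoma; of all tested genes 10.5% were higher and 11% lower in osteosarcoma and 9.4% lower in soft tissue sarcoma. Their sum was set by Mef2c, which lymphocytes and other cells also make: 459.0 to 964.3 CPM in the NG2 cells, 231.0 to 453.5 CPM in the osteosarcomas and 76.8 to 103.8 CPM in the soft tissue sarcomas. The 13 smooth muscle and mural markers summed to 1250 and 1891 CPM in the NG2 cells, 683.3 and 2139 CPM in the osteosarcomas and 1307 and 909.5 CPM in the soft tissue sarcomas, higher in the spinal than in the tibial tumour as the fibre genes were. The part of other cells in the fibre gene counts was not tested.

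A wider list of 62 other muscle fibre genes was read in the same way. Of 57 tested in osteosarcoma against NG2 cells, 5 were higher and 2 lower, against 10.5% and 11% of all tested genes, with a median log2 fold change of 1.58. Tropomyosin Tpm1, which coils along actin in muscle and non-muscle cells, went from 127.2 and 123.8 CPM in the NG2 cells to 2105 and 2096 CPM in the osteosarcomas, a log2 fold change of 4.07 ± 0.39 (SE; edgeR adjusted p = 0.00552). The fatty acid carrier Fabp3 went from 0.720 and 0.344 CPM to 77.8 and 75.3 CPM (7.17 ± 0.73 SE; edgeR adjusted p = 0.0058). For both genes the 2 osteosarcomas had nearly the same level, where most of the 37 genes were at least 4-fold apart. Muscle phosphofructokinase (Pfkm), the stress response gene Ankrd2 and the acetylcholine receptor subunit Chrna1 also rose, and the calcium pump inhibitor phospholamban (Pln) and tropomyosin Tpm3 fell. The calls of Tpm1, Fabp3 and Pln held in every alternative, whereas that of Pfkm was lost without NG2 cells 2, the spinal osteosarcoma or either soft tissue sarcoma. Those of Ankrd2 and Chrna1 were lost on leaving out any library except the tibial osteosarcoma, and that of Tpm3 without NG2 cells 1 or either soft tissue sarcoma. Each fit with 1 library left out also called fewer of all tested genes in this comparison. Chrna1 was named after its values were seen.

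In soft tissue sarcoma against NG2 cells, Tpm1, Pfkm, Chrna1 and the filamin Flnc rose and Pln and the calcium-binding protein Hrc fell, 4 and 2 of the 57, against 9.89% and 9.4% of all tested genes, with a median of -0.54. Chrna1 was at 0.222 and 0 CPM in the NG2 cells, 1.25 and 13.4 CPM in the osteosarcomas, and 47.2 and 59.8 CPM in the soft tissue sarcomas, so the subcutaneous tumours had the most of this subunit and the lowest sums over the 37 genes. Flnc was at 1.22 and 0.504 CPM in the NG2 cells and 33.2 and 41.4 CPM in the soft tissue sarcomas. All 6 calls were lost when either soft tissue sarcoma was left out, as was every call among the 20439 and 20760 genes then tested in this comparison. Those of Chrna1, Flnc and Hrc were also lost without either NG2 cell library, and those of Tpm1 and Pln without NG2 cells 2. The fits without an NG2 cell library also called fewer of all tested genes. Between the tumours edgeR called none of the 57, and DESeq2 called 4 higher and 9 lower. An unadjusted edgeR p under 0.05 was reached by 15, with no share of all tested genes computed. Fabp3 (edgeR adjusted p = 0.0583), Hrc (0.105) and Tpm3 (0.181) had the smallest p. From the tibial to the spinal osteosarcoma, 54 of these 62 genes were higher and 40 at least 4-fold higher, against 48.6% and 10% of all tested genes.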

How the data were processed

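The deposited files held raw counts per Ensembl gene, 1 table per library, made by the authors; the submitters' processing notes name STAR and HTSeq, with Trim Galore, cutadapt, FastQC and DESeq2, and the build GRCm38 (mm10), while versions, roles and the strand setting are not given in the sources used here. Per the labels' protocols, about 10 ng of total RNA was copied with an oligo(dT) primer and template switching and amplified in 20 PCR cycles. Reads on no gene were 19.5% to 33.2% of the gene, no-feature and ambiguous counts and stayed out of library sizes. Of 38561 IDs, 36723 were in GENCODE M21, which gave symbols, positions and exonic lengths.

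From the counts, edgeR 4.0.16 in R 4.3.3 (TMM scaling; filterByExpr with minimum counts 10 per library and 15 in all) fitted 19024 genes in 1 model of 6 libraries with 3 residual degrees of freedom, and quasi-likelihood F tests were adjusted by Benjamini-Hochberg over all genes. Genes with an adjusted p under 0.05 were called, and rose and fell are used for these. The script was tested on simulated data. Alternatives were DESeq2 1.42.0, RLE scaling, no filter, a replicate block, 2 groups only and each library left out. Every member was named; values in each library were given for called members and the 2 highest per kb in each role, others mostly by range. The members, the lists and the tests were chosen with earlier results of these data known.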

Additional observations from a re-analysis of the deposited data

Results flagged for a closer look

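For Eno3 and Casq1 the 2 tumour types moved in opposite directions from the NG2 cells in every library: both osteosarcomas were above and both soft tissue sarcomas below the 2 NG2 cell libraries. The difference between the tumour types was a log2 fold change of -2.51 ± 0.61 (SE; edgeR adjusted p = 0.152) for Eno3, with 121.0 and 42.6 CPM in the bone tumours against 19.2 and 9.50 CPM in the subcutaneous ones. For Casq1 it was -2.80 ± 1.05 (SE; edgeR adjusted p = 0.280), with 0.701 and 2.88 CPM against 0.302 and 0.202 CPM. Neither difference passed the threshold, nor did the changes from NG2 cells. In osteosarcoma and soft tissue sarcoma, the edgeR adjusted p was 0.0991 and 0.304 for Eno3 and 0.2015 and 0.59 for Casq1. Both osteosarcomas were above both NG2 cell libraries for 32.7% of all tested genes. Both soft tissue sarcomas were below them for 34.6%, and the share with both was not computed. Casq1 had 15 and 21 counts in the NG2 cells and 18 and 6 in the soft tissue sarcomas.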

How the results depend on the processing

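With 2 libraries per group, precision was limited by the spread between libraries, which the osteosarcomas made wide, and members with few counts could not be tested. Leaving out 1 library at a time moved the member calls of osteosarcoma against NG2 cells over 0 to 7 higher and 0 to 3 lower and their median log2 fold change over -2.54 to 3.70. For soft tissue sarcoma against NG2 cells the range was -2.14 to -0.68. Between the tumour types it was -4.73 to 1.33. The medians of the first and last changed sign without the spinal osteosarcoma alone. The log2 fold changes of osteosarcoma against NG2 cells ranged from -3.91 to 3.90 for Acta1, -2.48 to 3.83 for Ttn, -1.03 to 13.15 for Xirp2, -0.58 to 3.86 for Neb and -5.10 to 3.11 for Des, and those of soft tissue sarcoma against osteosarcoma from -7.37 to 2.35 for Acta1 and -4.76 to 1.53 for Ttn. The value whose sign differed from the rest was in each case the value without the spinal osteosarcoma.

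For the 62 other muscle fibre genes the median ranged over -1.60 to 2.46 in osteosarcoma against NG2 cells and -2.45 to 1.15 between the tumours. In soft tissue sarcoma against NG2 cells it ranged over -0.52 to 0.50 (above 0 without NG2 cells 2). DESeq2 called 6 members higher in osteosarcoma and 3 lower in soft tissue sarcoma against NG2 cells, and 9 lower in soft tissue sarcoma against osteosarcoma. Among the other fibre genes it called 13 higher and 5 lower, 7 higher and 11 lower, and 4 higher and 9 lower in the same order. Of all its tested genes, DESeq2 called 17.4% higher and 18.4% lower, 17% and 17.8%, and 6.38% and 4.36% in that order. Without a filter, 1 member was called lower in soft tissue sarcoma against NG2 cells, 4 other fibre genes lower in osteosarcoma against NG2 cells and 2 lower between the tumours. Of all 26039 genes then tested, 1874, 2182 and 162 were called lower in these comparisons. With only the 2 groups compared in the fit, 2 members were higher and 3 lower in soft tissue sarcoma, 2 other fibre genes were higher and 1 lower in osteosarcoma, and 8 were higher and 8 lower in soft tissue sarcoma, each against NG2 cells. Over all genes, these fits called 2671 higher and 2781 lower of 18116 in soft tissue sarcoma, and 808 and 1275 of 17971 in osteosarcoma. RLE scaling moved no count past 1.5 times the main value.

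Replicate numbers did not pair the libraries: same-numbered libraries had correlations of 0.05, -0.003 and -0.09. With the replicate block, 0 members were called higher in soft tissue sarcoma against NG2 cells (Myl3, edgeR adjusted p = 0.0691), 3 other fibre genes were higher in osteosarcoma and 1 lower in soft tissue sarcoma against NG2 cells. Of all 19024 genes, the block left 1105 higher and 1104 lower in soft tissue sarcoma and 1247 higher in osteosarcoma. The edgeR adjusted p of Myl3 ranged from 0.00686 to 0.0501 over its edgeR alternatives in osteosarcoma and from 0.0252 to 0.152 in soft tissue sarcoma. The mean summed level of the members in NG2 cells was 185.3 ± 5.36 CPM (SD, n = 2). It was 175.5 CPM without TMM factors, 173.4 CPM without Des and 128.0 CPM without Acta1. In an alternative chosen after seeing the data, it was 158.5 CPM without Eno3. The tumour means moved by less than their SD. In osteosarcoma the sums were 154.5 and 1786 CPM, so that SD was too wide to show a change. The tibial sum fell to 33.5 CPM without Eno3 and the spinal sum to 926.6 CPM without Acta1. The log2 fast to slow ratio moved by less than its SD without division by length, with a pseudocount of 1 and without the myosin heavy chains, and its osteosarcoma mean went from 0.98 to 1.47 without Myl3, which was chosen after seeing the data. The causes of these changes were not tested.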
